A study of Xenopus tropicalis with 84 samples.

Results

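The genes described here are 9 members of the Fgf pathway in *Xenopus tropicalis* embryos: the ligands *fgf3*, *fgf4*, *fgf8* and *fgf20*, the receptor *fgfr1*, and the feedback inhibitors *spry1*, *spry2*, *spry4* and *dusp6*. They were chosen by name, and each symbol matched 1 entry of the expression table, which lists 34192 genes. Whole embryos were either uninjected controls (UIC) or injected with 10 ng of a morpholino oligonucleotide (MO) against the start codon of *nup107*, which encodes a subunit of the nuclear pore. Both groups came from synchronous in vitro fertilisation and were kept in the same 1/9 strength saline at 25 °C. PolyA+ RNA was sequenced from 10 pooled embryos at each of 21 times, every 0.5 h from 2 to 12 h post fertilisation (hpf), with 1 library per time and condition. According to the paper, changes of polyadenylation in the early embryo also alter the maternal transcript levels that such libraries measure. UIC embryos received no control oligonucleotide, so an effect of injection is part of every difference. In whole embryos, fewer cells of a type and less RNA per cell cannot be told apart.

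Fgf ligands are secreted proteins that bind receptor tyrosine kinases together with heparan sulfate. The receptors signal through the adaptor Frs2 and the Ras, Raf, Mek and Erk cascade to Ets transcription factors. Sprouty proteins inhibit signalling below the receptor, and Dusp6 is a phosphatase that inactivates Erk. Because the pathway switches on their genes, they act as negative feedback and serve as readouts of Fgf activity. In the frog gastrula Fgf signalling maintains mesoderm through the T-box factor encoded by *t*.

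Expression was given in TPM, a unit that gives each transcript as a length-scaled share of its library and keeps no read number, so the depth of the libraries is unknown. ERCC spike-ins, which were added to the embryos' lysis buffer, made up 4.46% to 6.35% of the TPM in UIC and 4.599% to 5.98% in *nup107* MO libraries. The Spearman correlation between UIC and *nup107* MO at the same time lay between 0.980 and 0.994. The *nup107* mRNA itself had medians at 2 to 5 hpf of 204 TPM in UIC and 210 in *nup107* MO, and at 9 to 12 hpf of 34.4 and 89.9 TPM; an MO of this kind blocks translation, so mRNA does not measure the depletion. Of 40 germ layer marker genes in the table, all 40 had a mean over 1 TPM in UIC at 9 to 12 hpf.

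Zygotic *fgf8* was the most abundant of the ligand mRNAs from 6.5 hpf to the end of the course, while maternal *fgf2* led up to 6 hpf, and its course was nearly the same in both conditions. *fgf8* encodes a ligand of the ring of mesoderm around the blastopore. It was listed at 0 TPM in all 6 UIC and all 6 *nup107* MO libraries from 2 to 4.5 hpf. At 5 hpf it had 0.18 TPM in UIC and 0.34 in *nup107* MO. At 5.5, 6 and 6.5 hpf the UIC values were 5.38, 16.2 and 35.0 TPM, and the *nup107* MO values were 3.75, 18.6 and 32.8 TPM. Neither condition was higher throughout this climb. The maximum was 65.8 TPM at 8.5 hpf in UIC and 70.0 TPM at 9 hpf in *nup107* MO, and at 12 hpf the levels were 47.4 and 47.6 TPM. Over 9 to 12 hpf the mean was 54.0 ± 8.58 TPM over 7 time points in UIC (mean ± SD) and 54.7 ± 8.60 in *nup107* MO, with overlapping ranges.

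*fgf20*, a ligand of the Fgf9 subfamily, came on at the same stage but at a lower level. It reached 1.45 TPM in UIC and 1.87 in *nup107* MO at 5 hpf. Its maximum was 16.9 TPM at 9 hpf in UIC and 16.6 TPM at 9.5 hpf in *nup107* MO. By 12 hpf it was back at 9.83 and 10.8 TPM. The mean over 9 to 12 hpf was 13.3 ± 2.57 TPM in UIC and 13.4 ± 2.73 in *nup107* MO.

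*fgf3* and *fgf4* were the late and low ligands. In the RefSeq annotation (UCB_Xtro_10.0) these genes are direct neighbours, followed by *fgf19*, which had a mean of 0.177 TPM in UIC at 9 to 12 hpf. *fgf3* stayed between 0.06 and 0.70 TPM in UIC up to 8.5 hpf. It then had 1.61, 3.79 and 8.05 TPM at 11, 11.5 and 12 hpf in UIC, against 3.74, 5.47 and 8.44 TPM in *nup107* MO. *nup107* MO was thus the higher at all 3 of these times, most at 11 hpf, and the pair met at 12 hpf. From 7.5 to 10 hpf the order was the opposite, with *nup107* MO values of 0.24 to 0.74 TPM and UIC values of 0.61 to 1.21 TPM.

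*fgf4* was never above 2.13 TPM and was listed at 0 in 11 of 21 UIC and 14 of 21 *nup107* MO libraries. It passed the filter on low values only through the *nup107* MO libraries, whose unbroken stretch over 0.4 TPM ran from 9 to 12 hpf, so its difference there is a description with no test. UIC had 1.19, 0.47 and 1.35 TPM at 7.5, 8 and 8.5 hpf, where *nup107* MO was listed at 0. At 10 hpf the order was reversed, with 0 TPM in UIC and 1.84 in *nup107* MO. At 12 hpf both conditions were alike, at 2.13 and 2.11 TPM. A value listed at 0 in a TPM table can be a failed estimate as well as a missing transcript.

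**Figure D1:**
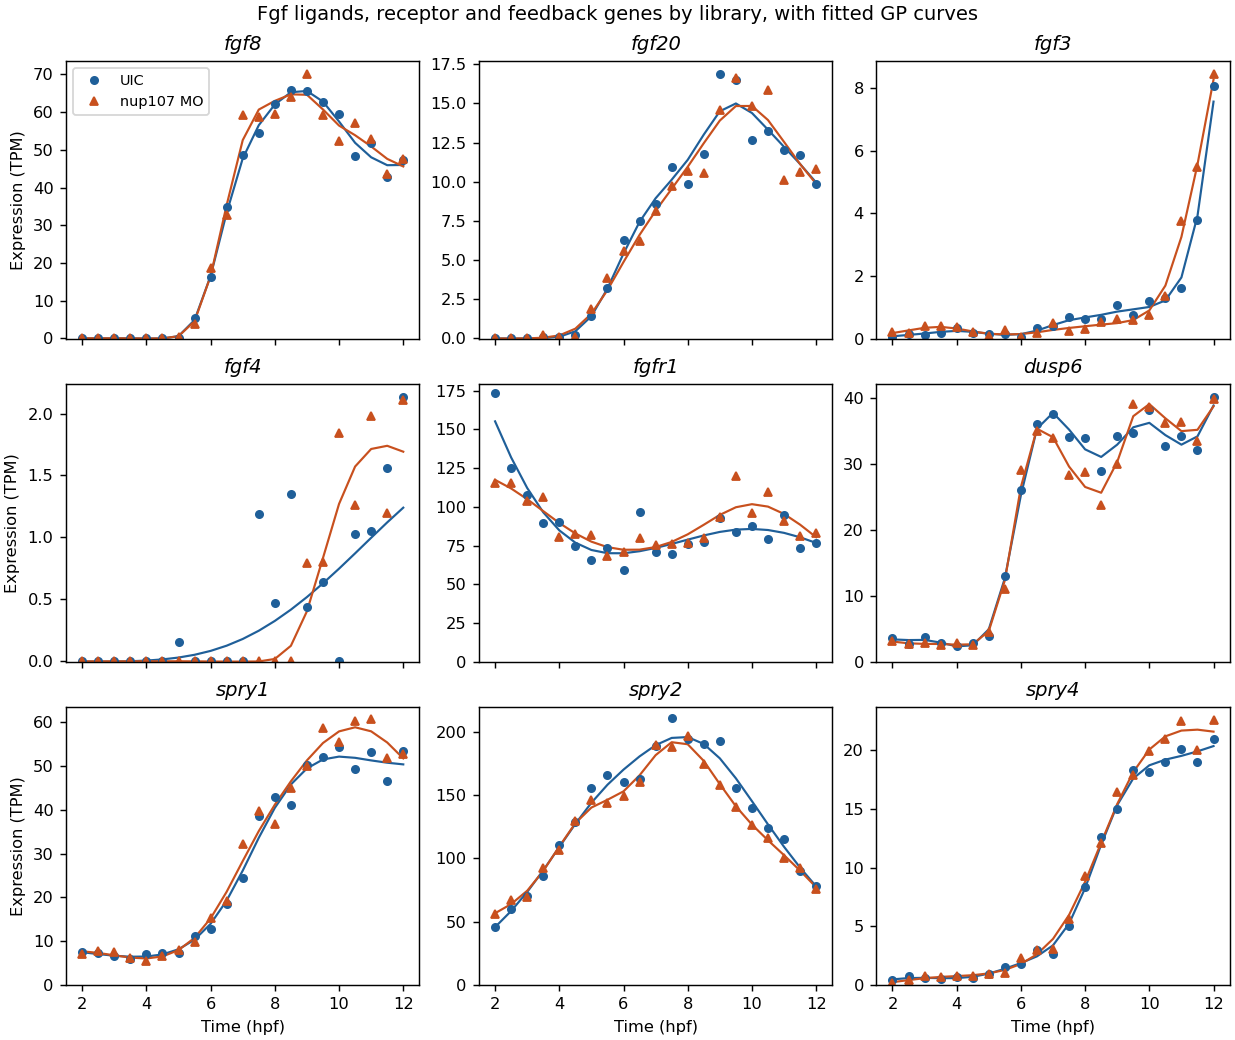
Expression (TPM, vertical axes differ) of the 9 members against time (hpf) in each UIC library (circles) and each nup107 MO library (triangles), with the Gaussian process curve fitted to each condition. The circles and triangles of *fgf8*, *fgf20*, *spry1*, *spry4* and *dusp6* climb together, while *fgf4* stays at or below 2.13 TPM.

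The most abundant ligand mRNA changed from a maternal to a zygotic one in both conditions. Of 17 ligand genes in the table, *fgf2*, *fgf9*, *fgf12* and *fgf14* together made up 97.1% of the summed ligand TPM in UIC and 96.3% in *nup107* MO at 2 to 5 hpf; these 4 were picked for their level. Fgf12 and Fgf14 are intracellular relatives of the secreted ligands. At 9 to 12 hpf the share of the 4 was 26.6% in UIC and 24.2% in *nup107* MO, and *fgf8* with *fgf20* held 62.2% and 62.9%. *fgf2* climbed again late, from 11.9 TPM at 9.5 hpf to 22.7 at 12 hpf in UIC. In *nup107* MO it went from 12.5 to 23.6 TPM, so the late share of the 4 need not be all maternal. The summed ligand level was 108 ± 8.10 TPM in UIC and 108 ± 7.97 in *nup107* MO in that window. *fgf8* was the larger part, with between 41.6% and 56.5% of the sum per UIC library and between 42.1% and 57.3% per *nup107* MO library.

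*fgfr1*, the receptor of the set, was supplied maternally, so its early levels can also reflect polyadenylation in these libraries. At 2 hpf it had 174 TPM in UIC and 115 in *nup107* MO, the largest gap between its libraries. The values met at 3 hpf (108 and 104 TPM) and at 5.5 to 8.5 hpf averaged 74.8 ± 11.4 TPM in UIC and 75.3 ± 4.45 in *nup107* MO. At 9.5 and 10.5 hpf *nup107* MO had 120 and 109 TPM against 83.9 and 79.0 TPM in UIC. In the same libraries *fgfr2*, *fgfr3* and *fgfr4* were also higher in *nup107* MO. *fgfr2* had 80.1 and 81.5 TPM against 57.5 and 54.5, and *fgfr4* had 134 and 134 against 118 and 110. Outside those times the late *fgfr1* values were closer, at 76.9 TPM in UIC and 83.3 in *nup107* MO by 12 hpf. The mean over 9 to 12 hpf was 84.0 ± 8.11 TPM in UIC and 96.3 ± 13.9 in *nup107* MO, higher in *nup107* MO at 6 of 7 times, with overlapping ranges.

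As a share of the summed *fgfr1* to *fgfr4* level, *fgfr1* held 33.4% in UIC and 34.8% in *nup107* MO at 9 to 12 hpf, when the sum was 252 ± 21.8 and 276 ± 45.2 TPM. At 2 to 5 hpf *fgfr1* made up 61.4% of the sum in UIC and 57.6% in *nup107* MO. *fgfr4*, the more abundant receptor in both conditions from 7 hpf, had 43.3% in UIC and 41.9% in *nup107* MO at 9 to 12 hpf.

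**Figure D2:**
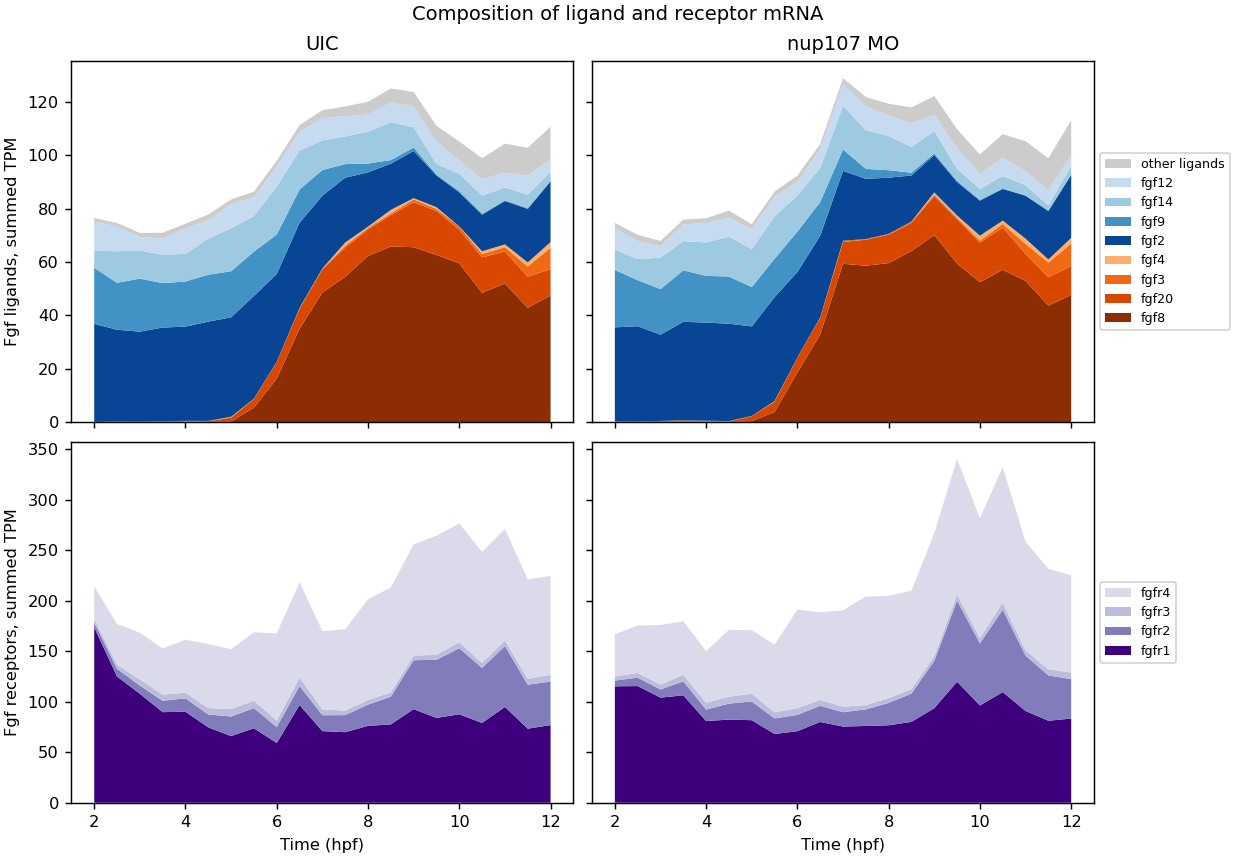
Summed TPM of Fgf ligand genes (top) and of *fgfr1* to *fgfr4* (bottom) against time (hpf), stacked by gene, for UIC (left) and nup107 MO (right), with 1 library per time. Maternal *fgf2*, *fgf9*, *fgf12* and *fgf14* (blue) fill the ligand sum up to 5 hpf and *fgf8* (dark brown) is the largest layer at 9 to 12 hpf in both conditions.

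*dusp6* climbed from a low maternal level at 5.5 hpf. Up to 5 hpf it lay between 2.31 and 3.90 TPM in UIC and between 2.53 and 4.54 TPM in *nup107* MO. At 5.5, 6 and 6.5 hpf UIC had 13, 26.1 and 36.1 TPM, and *nup107* MO had 11.0, 29.1 and 35.1 TPM. A shallow dip followed, which was lower in *nup107* MO: at 7.5, 8 and 8.5 hpf UIC had 34.1, 34.0 and 28.9 TPM and *nup107* MO had 28.3, 28.9 and 23.7 TPM. From 9.5 hpf *nup107* MO was the higher at 5 of 6 times, and at 12 hpf the levels were 40.2 and 39.8 TPM.

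*spry1* had a maternal level of 5.98 to 7.44 TPM in UIC and 5.47 to 8.04 TPM in *nup107* MO at 2 to 5 hpf. It had 11.2 TPM in UIC and 9.66 in *nup107* MO at 5.5 hpf and was highest at 54.3 TPM (10 hpf) in UIC and 60.7 TPM (11 hpf) in *nup107* MO. Over 9 to 12 hpf the means were 51.3 ± 2.75 and 55.7 ± 4.30 TPM, with *nup107* MO higher at 5 of 7 times and overlapping ranges.

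*spry2* was the most abundant feedback gene and had a course of its own. It was present at 2 hpf, at 46.0 TPM in UIC and 56.3 in *nup107* MO, and at 4.5 hpf, before the zygotic ligands came on, it had 129 and 130 TPM. In polyA+ libraries this early climb cannot be told apart from a change in polyadenylation. The maximum was 211 TPM at 7.5 hpf in UIC and 196.7 TPM at 8 hpf in *nup107* MO. At 9, 9.5, 10, 10.5 and 11 hpf UIC had 193.3, 156, 140, 124 and 115 TPM, and *nup107* MO had 158, 140, 127, 116 and 101 TPM. *nup107* MO was thus the lower at each of these 5 times, and at 12 hpf the levels were 78.3 and 76.1 TPM. *spry2* made up 89.8% of the summed TPM of the 4 feedback genes in UIC at 2 to 5 hpf and 54.9% at 9 to 12 hpf, against 90.0% and 50.8% in *nup107* MO.

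*spry4* was the last of the feedback genes to climb. It stayed at or below 0.92 TPM up to 5 hpf in both conditions and had 5.03 TPM in UIC and 5.61 in *nup107* MO at 7.5 hpf. Its maximum was at 12 hpf, with 20.96 TPM in UIC and 22.6 in *nup107* MO. At 9 to 12 hpf *nup107* MO was higher at 6 of 7 times, with means of 18.6 ± 1.89 TPM in UIC and 20.1 ± 2.27 in *nup107* MO. RefSeq places *spry4* directly beside *fgf1* and *spry1* near *fgf2*, with 2 genes between. *fgf1* had a mean of 0 TPM in UIC in all 3 windows, while *fgf2* is one of the maternal ligands above.

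The order of levels at 9 to 12 hpf in UIC was *spry2*, *fgfr1*, *fgf8*, *spry1*, *dusp6*, *spry4*, *fgf20*, *fgf3* and *fgf4*. The ranges over the 7 time points overlapped between *spry2* and *fgfr1*, *fgf8* and *spry1*, *spry4* and *fgf20*, and *fgf3* and *fgf4*, and were apart between the other neighbours. *nup107* MO had the same order except that *spry1* stood above *fgf8*, a pair whose ranges overlapped there too.

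To ask whether *nup107* MO altered these genes, separate Gaussian process (GP) curves for UIC and *nup107* MO were compared with 1 joint curve for each gene. The likelihood ratio score (LR) is over 0 where separate curves describe the gene better. Of 15011 genes with 6 consecutive libraries over 0.4 TPM in either condition, 1073 (7.15%) had an LR over 0. Among the 9 members this was so for *fgf4* alone, at an LR of 1.31. This gene passed the filter only through *nup107* MO values at 9 to 12 hpf. Those values also enter the score, so its LR is a description and no test. On the TPM scale its fitted curve was the higher in UIC from 3.5 to 9 hpf and in *nup107* MO from 9.5 hpf. That call rested on the values near 0 described above and ended with an LR threshold of 3, with median-ratio scaling (LR of -0.19) and with the log priors added to the score (LR of -5.00). The other 8 members had an LR between -21.6 and -4.76, beside a median of -6.78 over all tested genes. *fgf8* at -21.6 had a lower LR than all but 28 genes, *dusp6* at -19.0 than all but 72 and *fgf20* at -15.6 than all but 388. A very low LR needs a strong shared course as well as a small difference, so it is no measure of effect size.

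The mean difference over time was taken from limma on log2(TPM + 1), paired by time point, with Benjamini-Hochberg adjustment over all 15011 genes. Over 2 to 12 hpf no member was called at an adjusted p of 0.05, where 15.6% of tested genes were called. None of the 9 had an unadjusted p under 0.05, as 28.6% of tested genes had. The members' log2 differences lay between -0.05 and 0.06 with a median of 0.01, beside a median of 0.01 over all tested genes, and 5 were above and 4 below 0. The median size of the difference was 0.045 for the members and 0.054 for all tested genes. The lowest adjusted p of the 9 was 0.25, for *spry2* (limma).

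The 95% intervals given next cover the spread between time points under TPM scaling. They cover neither the choice of scaling nor a repeat of the time course. The *nup107* MO to UIC ratio of TPM + 1 was 1.01 for *fgf8* (95% interval 0.960 to 1.06) and 0.996 for *fgf20* (0.942 to 1.05). For the feedback genes it was 0.965 for *dusp6* (0.914 to 1.02), 1.04 for *spry1* (0.985 to 1.097), 0.966 for *spry2* (0.927 to 1.01) and 1.03 for *spry4* (0.977 to 1.09). It was 1.04 for *fgfr1* (0.970 to 1.12) and 1.02 for *fgf3* (0.928 to 1.11). The widest interval was that of *fgf4*, at 0.977 (0.833 to 1.15), which is a description only, given how this gene passed the filter. The direction of these small differences depended on the scaling. Relative to the ERCC spike-ins, *dusp6*, *spry2* and *fgf20* were higher in *nup107* MO, with log2 differences of 0.0085, 0.016 and 0.04. That value of *spry2* lay above the upper end of its interval under TPM scaling, 0.0079 on the log2 scale.

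**Figure D3:**
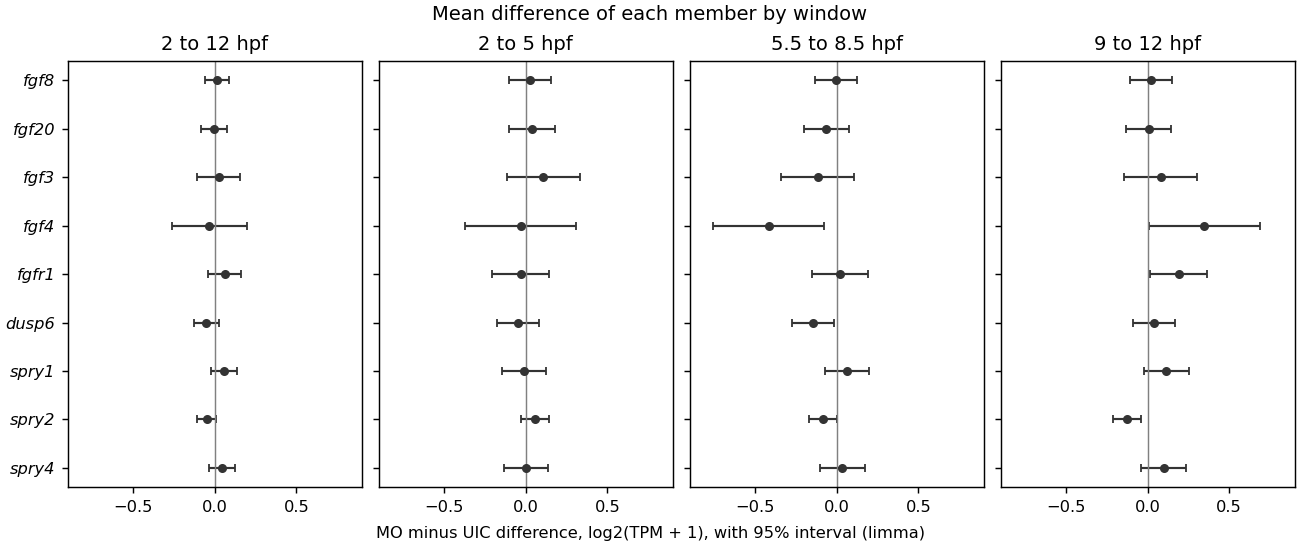
Mean nup107 MO minus UIC difference of each member on the log2(TPM + 1) scale, over 2 to 12 hpf and in 3 windows of 7 time points, with limma's 95% interval as bars. All intervals over 2 to 12 hpf cross 0, and *fgf4* has the widest in every panel.

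A difference confined to part of the course could be lost in this mean, so each window of 7 time points was tested in 1 limma fit. That fit gives a gene the same standard error in all 3 windows, so it does not follow the spread within a window. At 2 to 5 hpf, 8.05% of tested genes were called and 0 of 9 members, and no member had an unadjusted p under 0.05, as 22.1% of tested genes had. At 5.5 to 8.5 hpf, 0.52% of genes and 0 of 9 members were called, and *fgf4* and *dusp6* had an unadjusted p under 0.05, as did 15.4% of all tested genes. At 9 to 12 hpf, 10.8% of genes and 0 of 9 members were called, and *fgfr1* and *spry2* had an unadjusted p under 0.05, as did 24.9% of all tested genes. The members' median log2 difference was 0.002, -0.063 and 0.080 in these windows, beside 0.026, -0.011 and 0.016 over all tested genes. These medians include *fgf4*, the lowest member in the second window (-0.42) and the highest in the last (0.35), so they are a description only. Of 27 intervals for a member in a window, 5 excluded 0, among them those of *fgf4* at 5.5 to 8.5 and at 9 to 12 hpf. The one at 9 to 12 hpf is no test, because *fgf4* passed the filter only through *nup107* MO libraries of that window. For this reason *fgf4* is not listed beside *fgfr1* and *spry2* above. Its result at 5.5 to 8.5 hpf, listed beside that of *dusp6*, is also a description and no test. The standard error there draws on early pairs listed at 0 TPM.

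*spry2* at 9 to 12 hpf was the nearest to a call. Its log2 difference was -0.13 ± 0.041 (SE; 95% interval -0.21 to -0.04) and *nup107* MO was lower at 6 of 7 times, at an adjusted p of 0.055 (limma). Its adjusted p ranged from 0.027 to 1.00 over 29 alternative settings and was under 0.05 in 4: with median-ratio scaling (0.040) and without the 2, 11.5 or 12 hpf pair (0.031, 0.027 and 0.0499). Scaled to the spike-ins the difference was -0.05. From the first window to the last the difference of *spry2* moved by -0.18 ± 0.059, with an adjusted p of 0.085, and 0 of 9 members were called in this contrast, beside 3.58% of tested genes. *spry2* was the only one of the 9 with an unadjusted p under 0.05 there, as 17.4% of tested genes had.

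*fgfr1* at 9 to 12 hpf had a log2 difference of 0.19 (95% interval 0.02 to 0.36) and an adjusted p of 0.16 (limma). *dusp6* at 5.5 to 8.5 hpf had -0.14 (-0.27 to -0.02), was lower in *nup107* MO at 6 of 7 times and had an adjusted p of 0.26. *fgf4* had -0.42 (-0.76 to -0.08) at 5.5 to 8.5 hpf, with an adjusted p of 0.21, which came from 3 libraries in which UIC was above 0. Its difference at 9 to 12 hpf was 0.35, and 0.15 without the 10 hpf pair. Leaving *fgf4* aside, no window's 95% interval of a member reached beyond 0.36 on either side of 0. These intervals use 1 standard error per gene. For *fgf3* the SD of the differences was 0.15, 0.21 and 0.44 in the 3 windows, so its last interval draws on the quieter windows before it.

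**Figure D4:**
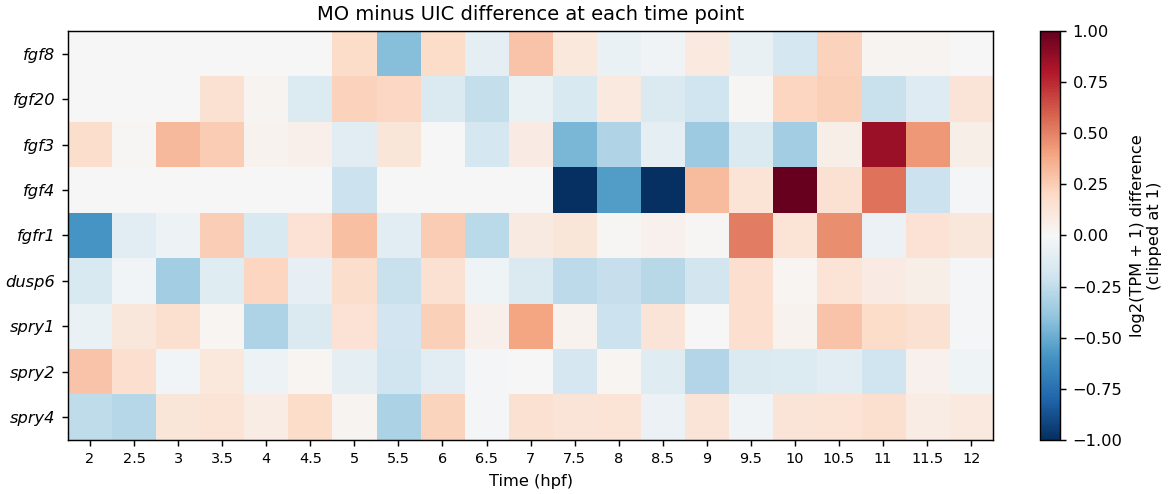
The nup107 MO minus UIC difference on the log2(TPM + 1) scale for each member (vertical axis) at each time (horizontal axis, hpf), red where nup107 MO was higher and blue where it was lower, with the scale clipped at 1. The darkest squares belong to *fgf4* and *fgf3*, whose levels were low, and *spry2* is blue from 8.5 to 11 hpf.

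At single times most members could lie on one side. At 6.5 hpf 7 of 9 members were lower in *nup107* MO, beside 55.9% of all tested genes, and at 8.5 hpf 7 of 9, beside 46.6%. At 10.5 hpf 8 of 9 were higher, beside 60.2% of tested genes, and at 11.5 hpf 7 of 9, beside 53.3%. At every other time at most 6 members lay on either side. Each such pair has no replicate, and the members share its libraries.

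The time at which each gene came on was compared next. For every gene under 10% of its UIC maximum at 2 hpf and with a UIC maximum of at least 5 TPM, the time of reaching 50% of that maximum was interpolated. The rule took 1605 genes, among them *fgf3*, *fgf8*, *fgf20*, *spry4* and *dusp6*. In UIC the order was *dusp6* at 5.77 hpf, *fgf8* at 6.44 hpf, *fgf20* at 6.92 hpf, *spry4* at 8.25 hpf and *fgf3* at 11.5 hpf. In *nup107* MO it was the same, at 5.75, 6.50, 7.08, 8.21 and 11.1 hpf. The shifts were -0.02 h for *dusp6*, 0.06 h for *fgf8*, 0.16 h for *fgf20*, -0.03 h for *spry4* and -0.45 h for *fgf3*, where a negative value is earlier in *nup107* MO.

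All 1605 genes had a median shift of -0.12 h with quartiles of -0.31 and 0.05 h, over the 1568 that reached the level in *nup107* MO. *fgf3* was below the lower quartile, *fgf8* and *fgf20* were above the upper one, and *dusp6* and *spry4* lay between. The shifts of *dusp6*, *fgf8*, *fgf20* and *spry4* were smaller than the 0.5 h between libraries, as was that of *fgf3*. With 1 library per time these shifts have no error, and they depended on the level chosen: at 75% of the maximum *fgf8* was at -0.25 h and *fgf3* at -0.17 h. *spry1* was excluded by its maternal level. It covered 50% of the way from its 2 hpf UIC level to its UIC maximum at 7.23 hpf in UIC and 6.95 hpf in *nup107* MO, and *spry2* did so at 4.50 and 4.47 hpf.

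**Figure D5:**
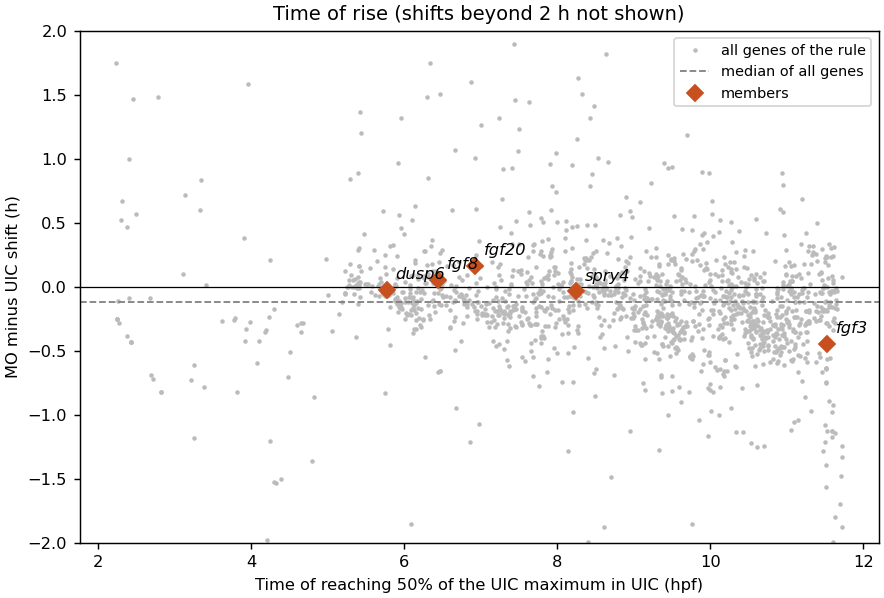
Shift between nup107 MO and UIC (h) in the time of reaching 50% of the UIC maximum against that time in UIC (hpf), for 1605 genes (grey; shifts beyond 2 h are not drawn) and for 5 members (diamonds). The dashed line is the median of all genes, -0.12 h, and *fgf3* lies below it while the other 4 members lie above it.

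The members fell into groups by the shape of their courses. Over the 42 libraries Pearson's r of log2(TPM + 1) was 0.984 between *fgf8* and *dusp6*, 0.978 between *fgf8* and *fgf20* and 0.950 between *fgf8* and *spry1*. *spry4* was closest to *spry1* at 0.969. *fgf3* and *fgf4* had an r of 0.813 with each other, and *fgfr1* had a negative r with *spry2* of -0.675. These values were alike when taken within UIC and within *nup107* MO, at 0.988 and 0.980 for *fgf8* and *dusp6*. The libraries share a time axis, so any pair of genes that climb at one stage has a high r.

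Among all tested genes with a symbol, those most like *fgf8* over the 42 libraries were *foxd4l1.1* (r of 0.996), *sfrp2* (0.996) and *stx19* (0.994). Those most like *fgf20* were *ventx2.1*, *admp* and *ventx2.2*, each at 0.990. *admp* was also the nearest to *dusp6* (0.987), followed by *ventx3.1* (0.985) and *ventx2.1* (0.984). The nearest to *spry1* were *cnfn.1* (0.995), *pou5f3.1* (0.994) and *ventx1.2* (0.993). The nearest to *spry4* were *slc12a3.2* (0.993), *slc20a1* (0.992) and *eef1a1o* (0.991). The nearest to *spry2* were *fam135a* (0.972), *reep6* (0.968) and *tmem248* (0.968), and to *fgfr1* *pds5a* (0.939), *cpsf6* (0.919) and *bmp1* (0.916). For *fgf3* they were *ubp1* (0.968), *afap1l1* (0.968) and *itga3* (0.967), and for *fgf4* *neurl1* (0.897), *nhs* (0.891) and *psd3* (0.889).

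The rest of the pathway was read from the same limma fit. Of 84 other pathway genes tested, 7 were higher and 1 was lower in *nup107* MO over 2 to 12 hpf, which is 9.52% against 15.6% of all tested genes. This split rested on the scaling, since relative to the spike-ins 14 were called and all 14 were higher, and with median ratios 11 were called, of which 5 were higher. The median log2 difference of the 84 was 0.01. The 8 other ligands, the 14 other feedback inhibitors and the 15 genes of heparan sulfate synthesis and editing held no call over 2 to 12 hpf. Of these, 1, 2 and 4 genes had an unadjusted p under 0.05, as 28.6% of all tested genes had. Of the 14 feedback inhibitors, *flrt3* and *dusp5* are named for the highest means in UIC at 9 to 12 hpf. *flrt3* had 143 TPM in UIC and 137 in *nup107* MO. Its log2 difference over all times was 0.10 (unadjusted p of 0.027, adjusted p of 0.12, limma). *dusp5*, which encodes an Erk phosphatase, had 48.1 TPM in UIC and 50.2 in *nup107* MO (log2 difference over all times 0.02).

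The calls over 2 to 12 hpf were 20% of 5 other receptors and co-receptors, 20% of 20 cascade genes and 13.6% of 22 transcription factors and targets. Over all tested genes the share was 15.6%. *etv1*, an Ets factor downstream of Fgf receptors, was higher at 19 of 21 times by 0.22 ± 0.038 on the log2 scale (adjusted p of 0.00031, limma), with 92.3 ± 10.8 TPM in UIC and 108 ± 11.1 in *nup107* MO at 9 to 12 hpf. Its relative *etv4* was higher by 0.17 ± 0.045, with 14.5 ± 1.47 and 17 ± 1.80 TPM at 2 to 5 hpf. *ets1* was higher by 0.11 ± 0.016 and at 20 of 21 times. The receptor *fgfr4* was higher by 0.12 ± 0.034, the phosphatase gene *ptpn11* by 0.13 ± 0.039, the Ras GTPase-activating protein gene *rasa1* by 0.12 ± 0.027 and *hras* by 0.08 ± 0.021. *frs2* has 2 entries in the table, between which reads could be split. One of them was lower by 0.14 ± 0.039, with 5.36 ± 6.07 TPM in UIC and 4.15 ± 4.27 in *nup107* MO at 9 to 12 hpf, and the other had a difference of 0.0040. Only *ets1* and *etv1* were called on the whole hours alone and on the times between them alone.

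Of the 84, 3 were called in the first window, none in the second and 8 in the last. These are 3.57%, 0% and 9.52%, against 8.05%, 0.52% and 10.8% of all tested genes. Of these 8, *ets1*, *etv1*, *rasa1* and *frs2* were also called over all times. The other 4 are named for this call, and all were higher in *nup107* MO. *fgf10*, a ligand, had 2.07 ± 1.67 TPM in UIC and 2.52 ± 2.00 in *nup107* MO. Its log2 difference was 0.17 (adjusted p of 0.045, limma), and it was higher at only 4 of 7 times. In the first and second windows *fgf10* was listed at 0 TPM in every library of both conditions. Its standard error, the same in all windows, thus draws on pairs with no spread. The adjusted p of *fgf10* therefore does not follow the spread of the last window alone, and its call is a description and no test. The receptor-like gene *fgfrl1* was higher by 0.32 (adjusted p of 0.0081, limma), the target *cdx1* by 0.20 (adjusted p of 0.048) and *map2k1* by 0.21. At 2 to 5 hpf *fgfrl1* had a mean of 0.08 TPM in UIC and 0.11 in *nup107* MO, and *cdx1* had 0.16 and 0.14. The standard errors of *fgfrl1* and *cdx1* thus draw on early pairs near 0 TPM as well. Their adjusted p-values do not follow the spread of the last window alone.

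By the GP test, 2 of the 84 had the higher mean curve in *nup107* MO and 1 the lower, on the square-root scale of that test. Over all tested genes 7.15% were called. The higher were *map2k1* (LR of 10.2) and *etv1* (1.07), and the lower was *junb* (16.5). *map2k1* and *junb* are named for these values. *junb* had 0.24 and 0.45 TPM in UIC in the first and second windows. At 9 to 12 hpf it had 4.75 ± 3.17 TPM in UIC and 3.11 ± 1.49 in *nup107* MO. Over 2 to 12 hpf its adjusted p was 0.18 (limma). *t*, the mesodermal target, had 217.6 TPM in UIC and 235 in *nup107* MO at 9 to 12 hpf, and its log2 difference over 2 to 12 hpf was 0.08 (95% interval -0.02 to 0.17). Of 39 germ layer markers tested, none was called over 2 to 12 hpf and 7 had an unadjusted p under 0.05, which is 17.9% against 28.6% of all tested genes. In the 3 windows 1, 1 and 2 of them were called. These are 2.56%, 2.56% and 5.13%, against 8.05%, 0.52% and 10.8% of all tested genes. By list, an unadjusted p under 0.05 over 2 to 12 hpf was found for 1 of 8 mesoderm and 2 of 10 organizer markers. It was found for 0 of 10 endoderm and 4 of 11 ectoderm markers. The median log2 differences of these lists were 0.05, 0.06, 0.07 and 0.09, beside a median of 0.01 over all tested genes. The summed level of all 40 markers at 9 to 12 hpf lay between 6162 and 6758 TPM in UIC and between 6081 and 6855 TPM in *nup107* MO. This sum joins the layers and cannot show a shift between them, which was not tested.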

How the data were processed

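PolyA+ RNA-seq of UIC and *nup107* MO embryos was used, 42 of 84 labelled samples, paired by time point, which both groups share by design. The 42 ribozero samples were not analysed here, since their table repeats the polyA+ values. Gene-level TPM were deposited by the authors, who used STAR for alignment (build Xt9.1 plus ERCC sequences) and RSEM for quantification; depth and counting error are therefore unknown. The paper's dinucleotide correction is not part of these values. Tool versions are not given in the sources used here.

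Genes with 6 consecutive libraries over 0.4 TPM in either condition were tested. The GP test used the transform, Matern 5/2 kernel and priors of the paper's methods, with a mean of 0. The limma model used log2(TPM + 1) with time as a block, and windows in 1 fit; a log2 difference on this scale understates the change of low genes. Time points stand in for replicates, so p-values measure the spread between time points, and neighbouring times are not independent (lag-1 autocorrelation of the members' differences between -0.46 and 0.43). The residual SD includes real change over time.

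The members and lists were chosen with earlier results of these data known. Named are all 9 members, the other pathway genes past an adjusted p of 0.05 over 2 to 12 hpf (up to the 10 largest), and the 3 genes most correlated with each member; exceptions are marked. Alternatives covered the pseudocount, scaling, filter, pairing, subsets of time points, LR threshold, GP transform and priors, and the level for the time of rise. The scripts were tested on simulated data. All 9 members matched RefSeq by symbol; its gene order was used to name neighbouring genes, and no coordinate is given because the builds differ. No sequence is printed, and no motif or seed match was searched. Scripts ran in Python 3.11.15 (pandas 2.3.3, numba 0.67.0, numpy 2.4.6), and limma 3.58.1 ran in R 4.3.3.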

Additional observations from a re-analysis of the deposited data

Results flagged for a closer look

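Among the members and the other pathway genes tested, the difference between *nup107* MO and UIC moved from the first window to the last at an adjusted p under 0.05 (limma, a test of the difference between the windows) in 1 gene, *map2k1*, which encodes the kinase Mek1. That is 1.19% of the 84 other pathway genes and 0 of 9 members, against 3.58% of all tested genes. The move of *map2k1* was 0.30 ± 0.048 on the log2 scale, with an adjusted p of 0.0016. At 2 to 5 hpf *map2k1* had 204 ± 24.8 TPM over 7 time points in UIC (mean ± SD) and 192 ± 18.5 in *nup107* MO, and *nup107* MO was higher at 0 of 7 times. At 9 to 12 hpf it had 130 ± 18.7 and 150 ± 12.3 TPM, and *nup107* MO was higher at 6 of 7 times. The adjusted p ranged from 8.0e-05 to 1.00 over 29 alternatives and was under 0.05 in 25. It was 0.15 with ERCC scaling, 0.28 on whole hours and 0.15 on the times between them. Without the pairing it was 1.00, in a fit that held window means in place of the time points.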

How the results depend on the processing

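The limits of these results are 1 library per time and condition, whole embryos, polyA+ selection, an uninjected control and TPM without depth. Small differences of low genes such as *fgf4* and *fgf3* are the least certain. No member was called by limma over 2 to 12 hpf, at 2 to 5 hpf, at 5.5 to 8.5 hpf or in the change between windows under any alternative tried. At 9 to 12 hpf 1 member, *spry2*, was called with median-ratio scaling, and leaving out single time points gave between 0 and 1. By the GP test 0 members were called at an LR over 3, with median-ratio scaling and with the log priors added. With the gene mean subtracted 2 were called, *fgf4* at 2.32 and *fgfr1* at 0.048. The score of *fgf4* is no test, for the reason given above. Other pathway genes called numbered 8, and 14 with ERCC scaling, 2 on whole hours, 2 on the times between them and between 8 and 11 without single time points.

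UIC and *nup107* MO libraries of one time deviated together from their window means at 20 of 21 times (r over 0.1). The r was 0.92 at 5.5 hpf and 0.07 at 10.5 hpf. Change over time within a window moves both conditions alike, so these values are no test of the pairing. Without the pairing by time (no block) 0 members and 0 other pathway genes were called.

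Several log2 differences over 2 to 12 hpf changed sign, none of them past the threshold. With ERCC scaling *fgf20*, *spry2* and *dusp6* were at 0.038, 0.016 and 0.0085. On whole hours *fgf4* was at 0.14 and *fgf20* at 0.0059, and on the times between them *fgf8* was at -0.026 and *spry4* at -0.0051. With a pseudocount of 0.1 *fgf20* was at 0.011. Leaving out single time points gave -0.019 to 0.047 for *fgf3*, -0.11 to 0.026 for *fgf4*, -0.00037 to 0.035 for *fgf8* and -0.019 to 0.0055 for *fgf20*. The cause was not tested. The median shift of the 5 members in the time of rise was -0.02 h and moved by less than 0.25 h under all 4 alternatives; *fgf20* moved to 0.45 h with ERCC scaling. Over all tested genes, 66.6% of calls over 2 to 12 hpf were higher in *nup107* MO, 97.9% with ERCC scaling and 51.4% with median ratios, and the share of genes called was 15.6%, and 2.32% on whole hours, 4.86% on the times between them and 1.64% without the pairing. At 9 to 12 hpf it was 10.8%, and 5.19% with ERCC scaling.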
